A study of Drosophila melanogaster with 3 samples.

Results

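Intergenic binding regions of foxo that lie away from annotated start sites numbered 1407 of 9766 regions, or 14.4% (Wilson 95% interval 13.7 to 15.1), in larvae of Drosophila melanogaster. They were taken from the list that passed the authors' reproducibility threshold (called the optimal list here), in the dm6 build on X, 4 and the arms 2L, 2R, 3L and 3R. A region belonged to them when its summit lay outside every annotated gene and more than 1000 bp from every annotated transcription start site, transposable elements left out of the annotation. The assay was chromatin immunoprecipitation with sequencing (ChIP-seq) of a foxo-GFP fusion, made by an eGFP exon placed in an intron of foxo (strain foxo-MiMIC-GFP), with an antibody against GFP. Chromatin came from whole wandering larvae of the third instar, males and females together, so every tissue contributes and none can be told apart. There were 3 biological replicates and no other group. Without an input or an untagged strain among the lists used, signal that needs the fusion protein and signal that does not cannot be told apart. Sequencing depth is unknown from these lists, and intervals cover counting error only, with regions taken as independent of one another.

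The forkhead factor foxo acts at the end of the insulin pathway: when insulin signalling is strong, Akt phosphorylates it and it stays in the cytoplasm, and when signalling falls it enters the nucleus and binds DNA. Forkhead proteins recognise a short core, TAAACA, and the form GTAAACA is the classical FOXO site. Sequence between genes holds enhancers, which act on start sites at a distance and in flies are often clustered around developmental regulators. The initiator, whose common fly form is TCAGT with transcription starting at its A, is a core promoter element found at many start sites.

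Sequences of 6 intergenic regions are printed first, since results below return to them. The first 3 are windows of equal length centred on the summit: the region of highest signal off the arm from which no sequence is shown, a region upstream of kay, which encodes the fly Fos protein, and the strongest region upstream of foxo itself. Capitals in these mark TGANTCA on either strand, a loose form of the AP-1 site that allows any base in the middle. The match upstream of kay reads TGAGTCA and that upstream of foxo reads TGAATCA. None of the 3 holds the forkhead core TAAACA. All sequences are plus strand, 5′ to 3′, from the NCBI Release 6 reference, which is dm6.
chr2L:2202336-2202486: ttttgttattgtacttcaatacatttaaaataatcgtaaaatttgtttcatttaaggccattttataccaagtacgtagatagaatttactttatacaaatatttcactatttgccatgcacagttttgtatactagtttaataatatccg
chr3R:29763290-29763440: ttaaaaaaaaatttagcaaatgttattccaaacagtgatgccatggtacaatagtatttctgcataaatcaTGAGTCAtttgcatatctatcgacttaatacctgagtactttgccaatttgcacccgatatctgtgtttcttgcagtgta
chr3R:14053533-14053683: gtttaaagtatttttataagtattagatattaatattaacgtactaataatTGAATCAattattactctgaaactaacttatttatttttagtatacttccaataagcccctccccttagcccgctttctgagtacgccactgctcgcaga
In windows of that length TGANTCA was found in 43 intergenic regions (3.06%), in 3.28% of peaks near a start site, in 5.05% of gene-body peaks and in 2.64% of windows elsewhere in intergenic territory.

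The other 3 windows have 251 bases and show an arrangement that was found after the values were seen: the word TCAGTG, in capitals, on the plus strand to the right of the summit and on the minus strand (printed as CACTGA) to the left. They are the 3 regions of highest signal with that word on both sides, apart from mostly soft-masked ones and those on the arm not shown.
chrX:21593952-21594202: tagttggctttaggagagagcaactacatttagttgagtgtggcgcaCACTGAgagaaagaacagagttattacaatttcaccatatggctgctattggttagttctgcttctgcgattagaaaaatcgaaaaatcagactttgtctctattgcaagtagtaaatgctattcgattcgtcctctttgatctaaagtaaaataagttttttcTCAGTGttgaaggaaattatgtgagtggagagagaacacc
chr3R:5100431-5100681: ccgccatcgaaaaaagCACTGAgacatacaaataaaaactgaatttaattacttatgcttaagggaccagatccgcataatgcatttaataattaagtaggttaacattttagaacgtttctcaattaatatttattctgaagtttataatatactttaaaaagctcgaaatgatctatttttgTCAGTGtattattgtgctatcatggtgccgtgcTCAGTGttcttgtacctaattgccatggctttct
chr2L:3594075-3594325: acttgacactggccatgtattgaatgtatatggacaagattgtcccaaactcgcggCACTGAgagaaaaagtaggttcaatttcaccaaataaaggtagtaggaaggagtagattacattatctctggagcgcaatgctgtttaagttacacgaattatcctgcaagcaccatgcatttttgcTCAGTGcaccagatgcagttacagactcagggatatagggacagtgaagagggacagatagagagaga
Counted from the A of the word, the first window holds it 75 bp to the left of the summit and 88 bp to the right. The second holds it 106 bp to the left and 61 and 94 bp to the right. The third holds it 66 bp to the left and 60 bp to the right, and lies 10024 bp from the 3′ end of odd, a segmentation gene. In windows of 251 bases TCAGTG on either strand was found in 25.4% of intergenic regions, 16.4% of peaks near a start site, 21.5% of gene-body peaks and 9.65% of windows elsewhere in the territory.

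Intergenic territory, the bases that meet the rule, held fewer foxo summits than its length alone would give. It covered 33.6 Mb, 25.1% of the arms, and held 41.8 intergenic regions per Mb, against 157.4 per Mb within 1000 bp of a start site and 49.3 per Mb in genes away from start sites. The share was also taken in each replicate's own 9766 regions of highest signal. It was 13.0% in replicate 1, 15.2% in replicate 2 and 13.7% in replicate 3. On the log2 scale the share of summits over the share of bases was −0.95, −0.72 and −0.88, with a mean of −0.85 ± 0.12 (SD, n = 3). All 3 replicates were below 0 (exact two-sided sign-flip permutation test, p = 0.25). That is the smallest p 3 replicates allow in this test, so none of the tests below can pass 0.05. Among the 20234 pooled regions that did not reach the optimal list, 22.3% were intergenic by the same rule. Soft-masked sequence took 27.1% of the territory, and reads in repeats may not map uniquely. The part of this in the lower count was not tested.

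**Figure D1:**
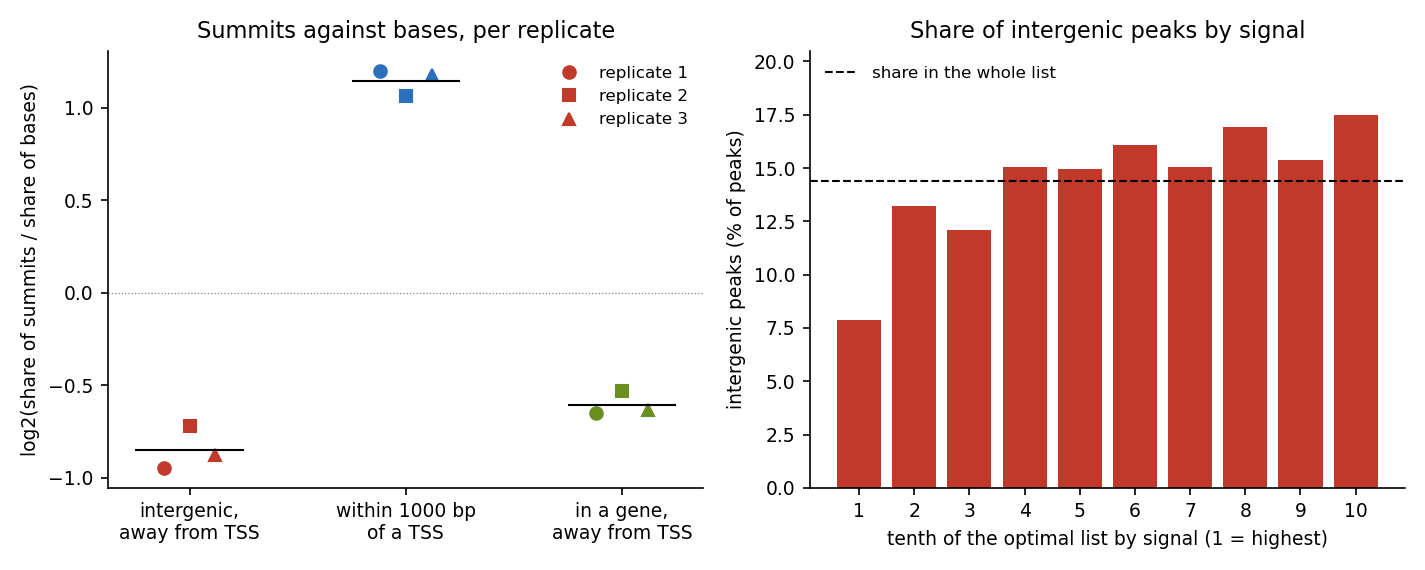
Left, log2 of the share of summits over the share of bases for 3 classes of position (points, replicates; line, mean); right, the share of intergenic regions in each of 10 equal classes of the optimal list by signal, with the whole list's share as a dashed line. Intergenic regions sat between −0.95 and −0.72 in the replicates and made up 7.89% of the highest class and 17.5% of the lowest.

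Signal in the intergenic regions was lower than at start sites and near that of gene-body peaks. Signal is the authors' peak height and is compared only within a list. The median of the intergenic regions was 287, with quartiles of 202 and 480 and a range of 150.7 to 7499. The median was 363 near start sites and 282 in gene bodies. Within each replicate's own list the intergenic regions had a median signal percentile of 44.4, 43.8 and 48.0. Minus the median of peaks near a start site this was −10.9, −13.3 and −5.09 percentile points (mean difference −9.76 ± 4.22, SD, n = 3; exact sign-flip p = 0.25). With ranks over all regions of each replicate it was −19.8, −19.5 and −18.7 points (mean −19.3). Against gene-body peaks the difference was 0.84, −0.26 and 1.59 points, which changed sign between replicates (exact sign-flip p = 0.50). With the optimal list cut into 10 equal classes by signal, 77 of 976 peaks were intergenic in the highest class and 171 of 977 in the lowest.

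Most intergenic regions had a matching summit in each replicate. The optimal list was derived from these same 3 replicates, so recovery is partly built into the choice of regions. The replicate lists were cut by signal, so a rise of recovery with signal is partly built in as well. A summit within 100 bp among the 9766 regions of highest signal was present for 81.9% in replicate 1, 89.9% in replicate 2 and 79.2% in replicate 3 (mean 83.7% ± 5.5, SD, n = 3). It was present in all 3 for 911 regions, or 64.7% (Wilson interval 62.2 to 67.2), where the background over all optimal peaks was 65.2%. A further 326 were found in 2 replicates, 148 in 1 and 22 in none. With the 30000 deposited regions of each replicate in place of the upper 9766, 1250 regions (88.8%) had a summit in all 3. Recovery minus that of peaks near a start site was −6.10 points in replicate 1, 5.54 in replicate 2 and −2.89 in replicate 3 (mean −1.15; exact sign-flip p = 0.75). This depended on the list length: with the replicate lists cut to their upper part, at N/2 regions, it was −17.0, −8.27 and −7.62 points (mean −11.0; exact sign-flip p = 0.25). Recovery followed signal: it was 96.6% in all 3 replicates for the 352 intergenic regions of highest signal, then 88.9% and 61.8%, and 11.6% for the 352 of lowest signal. The whole list was also cut into 4 equal classes by signal. In the highest, 96.6% of intergenic regions were found in all 3 replicates, against 96.6% near start sites and 97.5% in gene bodies. In the second these shares were 92.1%, 86.2% and 93.1%, in the third 70.5%, 55.6% and 67.8%, and in the lowest 15.4%, 9.20% and 13.5%, with no test of the differences. Across the 1307 regions seen in replicates 1 and 2, signal had a Spearman rank correlation of 0.85. It was 0.79 for replicates 1 and 3 and 0.81 for replicates 2 and 3, all over sites chosen from the pool of the same libraries.

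The highest intergenic region lay on 2R at 13035020 to 13035638, between the 3′ ends of Su(z)2, a Polycomb-group gene, and the uncharacterised CG13323. Its signal was 7499 in the optimal list, where it ranked 6, and it ranked 7, 6 and 5 in replicates 1, 2 and 3. Its summit lay 27440 bp from Su(z)2 and 9344 bp from CG13323. The second, printed above from arm 2L, had a signal of 5030.4 and of 1839.9, 1915 and 1327 in the replicates. It lay 1310 bp from the 3′ end of CG31668 and 4499 bp from the 5′ end of COX7AL2, and the gap holds another of the 12 highest regions, 1480 bp from COX7AL2 with a signal of 2146. The third, at 10776270 to 10776855 on 3L, had a signal of 4617 and of 1705, 1982 and 1069.7 in the replicates, 3162 bp from the 3′ end of CG43245. All 12 highest regions were among the upper 9766 of every replicate. Below these 3 the 12 continued from 2376 down to 1999, the last one between Tollo, a Toll-family receptor gene, and Best4. The highest region on X had a signal of 1669 and lay 1734 bp from the 3′ end of Paics, a gene of purine synthesis. Chromosome 4 held 3 intergenic regions; the highest had signals of 352 and 240.2 in replicates 1 and 2 and no summit within 100 bp in replicate 3.

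Regions stood upstream of foxo itself and of kay. The region printed for kay had a signal of 2201 and of 811, 908 and 538 in the replicates, and its summit lay 2630 bp from the 5′ end of the gene. Upstream of foxo there were 3 regions within the gap to tRNA:Ser-GCT-2-2. The strongest lay 3337 bp from the 5′ end of foxo, with a signal of 1600.5 and of 663, 665 and 302 in the replicates. The next, 7951 bp away, had 207, 271 and 168 in the replicates, and its window was 61.7% soft-masked. The weakest, 4542 bp away, had 113, 57.1 and 69.2 and fell below the upper 9766 in replicate 2. No intergenic region lay beside InR (the insulin receptor), Thor (the translation inhibitor 4E-BP) or bmm (a triglyceride lipase), which are known foxo targets. How much territory these genes border is not given here. Among all genes bordering under 1 kb of territory only 1.87% had a region. Among the genes bordering territory, 2 of 14 of the insulin and TOR list had an intergenic region beside them, foxo and Sesn, which encodes a TOR inhibitor. The background was 16.7% of the 6182 protein-coding genes that border the territory, and the list's share was 14.3%.

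In the list of stress response and cell death genes 6 of 16 (37.5%) had an intergenic region beside them, against the background of 16.7%. Beside kay came hid, which triggers apoptosis, with 6 regions, the highest at 528, 615 and 381 in the replicates and 5043 bp from the gene. Atf3, a stress-induced bZIP factor, had 1 region with 546, 609 and 317 in the replicates, 1897 bp away. The other death genes rpr, skl and grim made up the rest. The highest region between rpr and skl had a signal of 378 and no summit within 100 bp in replicate 1. The list bordered a median of 3.03 kb of territory, against 2.00 kb over all bordering genes, but the death genes border far more: 127.1 kb for rpr, 90.1 kb for grim and 52.0 kb for skl. Among all genes with over 50 kb of adjacent territory 44.7% had a region.

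Intergenic regions were common beside patterning and signalling genes. Of the 73 genes for patterning and identity transcription factors that border territory, 42 (57.5%) had one, against the background of 16.7%. These genes border more territory: a median of 20.4 kb. Among all genes with 20 to 50 kb of adjacent territory the share was 45.7%, and among those with under 1 kb it was 1.87%. Per Mb of adjacent territory the patterning list held 91.2 regions and all bordering genes 43.3. The homeobox gene Dr had 7 regions, the highest at 417, 388 and 227 in the replicates and 1911 bp away. The T-box gene mid had 14, the highest at 291, 360.0 and 257 and 25500 bp away. That region lay in a stretch of 50126 bp between mid and CG14020, slightly nearer to CG14020. The Sox gene SoxN had 6, the highest at 284, 353 and 225 and 5327 bp away. The homeobox gene hth had 18, the most of the list, and ems and en had 12 each. Secreted ligands had one in 16 of 29, at 145.6 regions per Mb. Wnt6 had 5, the highest at 455, 525 and 256.4 in the replicates and 5652 bp away, in a gap shared with Wnt10. To Wnt10 that region was nearer, at 5185 bp. The BMP ligand dpp had 9, the highest at 336, 376 and 267, which lay 27190 bp from dpp and nearer to Slh, the next gene. The cytokine gene upd3 had 6, the highest at 301, 376 and 197 and 9636 bp away. The forkhead family, foxo included, had one in 9 of 12, among them bin with 3 and the neighbours slp1 and slp2. Neighbours that border the same gap share its regions and are each counted, as with slp1 and slp2. A further pair of forkhead neighbours shares 1 region with a signal of 163, which was in no replicate's upper list. Of the 8 Hox genes 4 had one, at 37.3 per Mb. Ecdysone and juvenile hormone genes had one in 3 of 11, of which Eip93F, an ecdysone-induced factor of metamorphosis, had 8 (highest 359, 361 and 232 in the replicates).

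Further lists ranged from below the background of 16.7% to slightly above it. The cell-recognition families dpr, DIP, beat and side, which act in neuronal wiring, had one in 6 of 50 at 3.44 per Mb, although they border a median of 14.5 kb each. Among all genes with 10 to 20 kb of adjacent territory the share was 33.5%. Chemoreceptor genes had one in 13 of 102, of which Gr93d had the highest region (599, 656 and 649 in the replicates) and the neighbours Gr93a and Gr93b had 11 and 7 regions. The chemoreceptor share was 12.7%, and genes with 1 to 5 kb of adjacent territory, where the list's median of 4.76 kb lies, had 14.4%. Cuticle protein genes had one in 5 of 74 (6.76%) and cytosolic ribosomal protein genes in 7 of 34 (20.6%). Among microRNA genes it was 2 of 20 and among circadian clock genes 0 of 6. Whole larvae were used, so a low count beside genes active in few cells and a low count in all cells cannot be told apart. Each list is described by its counts, with no test.

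**Figure D2:**
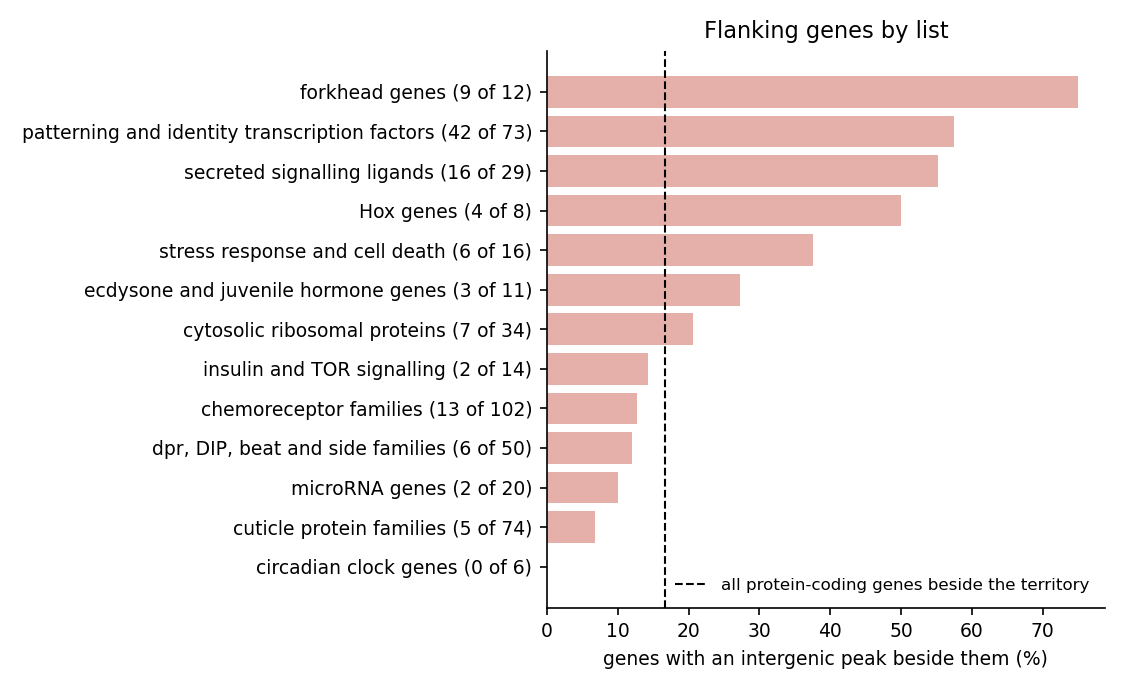
Share of the genes bordering intergenic territory that had an intergenic region beside them (bars), for 13 gene lists, with the counts in brackets and the share over all bordering protein-coding genes, 16.7%, as a dashed line. Forkhead, patterning and ligand lists exceeded 50% and the cell-recognition, cuticle and clock lists lay below the line. The lists differ in how much territory their genes border.

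Within the territory the density of intergenic regions fell with distance from start sites. Repeat content was not compared between distances. The nearest start site was a median of 4122 bp away (quartiles 2116 and 7566), against 6794 bp for positions of the territory at large. Density was 69.5 per Mb (exact Poisson 95% interval 62.0 to 77.6) at 1000 to 2000 bp, 55.9 at 2000 to 5000 bp, 53.9 at 5000 to 10000 bp, 30.8 at 10000 to 20000 bp and 6.05 (4.46 to 8.02) beyond. The order of the first bin over the fourth and the fourth over the last held in each replicate: 66.2, 73.9 and 66.6 per Mb in the first, 26.4, 33.4 and 28.8 in the fourth, 4.91, 6.80 and 4.79 in the last. The farthest region lay 43245 bp from any start site, on 2L between CG10651 and lncRNA:CR40341, over an annotated transposable element and in a window 91.0% soft-masked. At the edge of the rule, 66 intergenic summits 801 to 1000 bp from a start site, which are not counted, had a median signal of 369. The 70 intergenic regions at 1001 to 1200 bp had 318.

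The arms differed. The left arm of chromosome 3 held 472 intergenic regions, or 55.8 per Mb of territory (50.8 to 61.0), with 49.7, 58.0 and 56.2 in the replicates' own lists. Of all regions 65.1% lay in runs, as given below, so intervals that take regions as independent are too narrow. The stretches from hng3 to CG13898 and from NijA to CG43245, with 21 regions each, are on 3L. Arms 2L and 3R held 46.2 and 45.9 per Mb, which lie within each other's intervals. On X there were 28.4 per Mb (23.9 to 33.5) and on 2R 27.2 (23.5 to 31.4), again within each other's intervals. Log2 density on X over all other arms was −0.59, −0.55 and −0.87 in the replicates (mean −0.67; exact sign-flip p = 0.25). Of foxo peaks on X 7.24% were intergenic by the rule, against 22.2% on 3L and 11.3% on 2R. The territory itself made up 20.8% of X, 30.1% of 3L and 27.4% of 2R. Soft-masked sequence took 27.3% of the territory on X and 27.7% on 3L. The larvae were of both sexes, and the part of X copy number in its lower count was not tested.

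**Figure D3:**
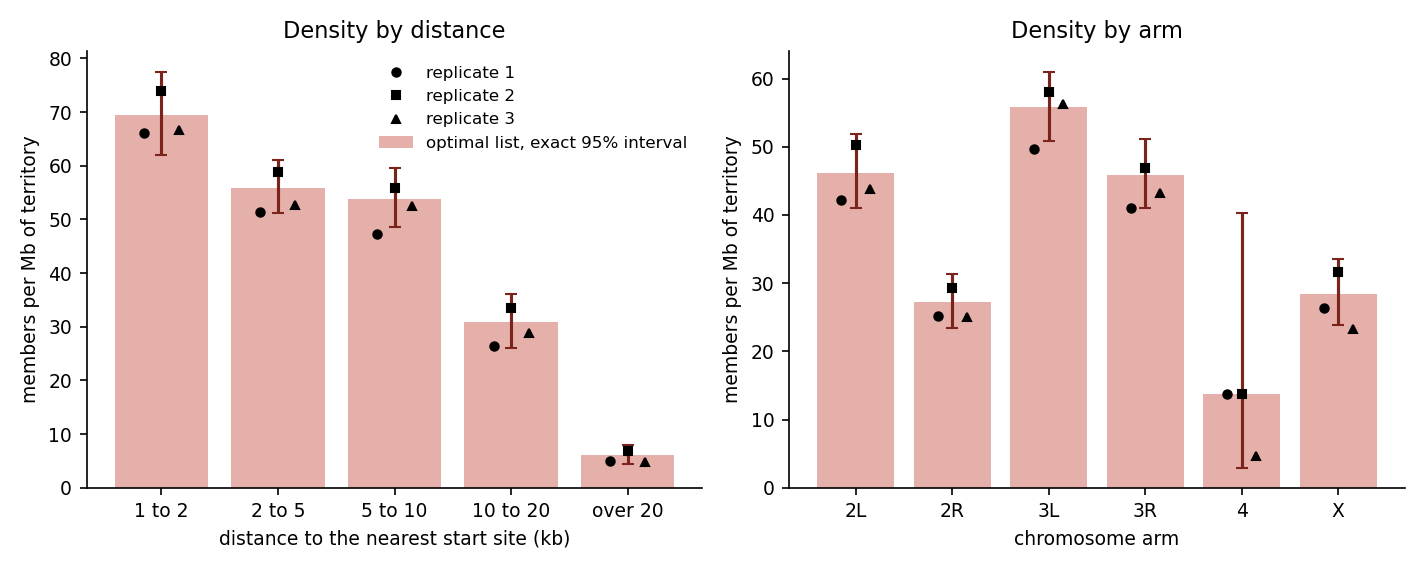
Intergenic regions per Mb of territory by distance to the nearest start site (left) and by chromosome arm (right); bars, optimal list with exact Poisson 95% intervals; points, each replicate's own 9766 regions of highest signal. Density fell from 69.5 per Mb at 1 to 2 kb to 6.05 beyond 20 kb, and 3L stood at 55.8 against 28.4 on X.

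Counted by gap, the regions lay in a small part of the gaps between genes. Gaps differ in how much territory they hold, and how much of it lies in the gaps with a region is not given here. Of 4793 gaps with territory, 672 (14.0%) held one or more; 380 gaps held a single region, and 94 gaps with 4 or more held 567 in all. Runs of regions spaced at most 5000 bp apart numbered 284 and took in 916 regions (65.1%), with up to 11 in a run. Runs were not counted in the other classes or for random positions, so that share has no background here. Another region lay within 500 bp for 215 of them all, where the median width of a region was 460 bp. Whether such close summits mark separate bound stretches was not tested. The gap with most lay on 3L from 10696878 to 10771924 between the 5′ ends of NijA, which encodes a ninjurin, and CG43245. It held 21 in 75047 bp, of which 11 were in the upper list of every replicate. The gap from 770463 to 803426 on 3L, between tRNA:Ile-TAT-1-2 and CG13898, held 14 in 32964 bp. Counted between protein-coding genes, the stretch from hng3 to CG13898 held 21, of which 17 were in every replicate's upper list, with signals of 196.9 to 2376. Next came the gap of 12 on 3R between AOX4 and CG43335, where the highest had a signal of 552, and a gap of 12 between lncRNA:CR44526 and SrpRbeta on 3L. The latter belongs to a stretch of 16 beyond the 3′ end of hry, a pair-rule gene. The gap between CG18404 and lncRNA:CR46113 on 3R held 11 in 18664 bp, at 598.7 per Mb. The 12 regions from CG18404 to the 5′ end of heca had a median signal of 1003.5, and 11 of them were in every replicate's upper list.

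Gaps between divergent genes, with a 5′ end on each side, held 25.4% of the regions and 19.2% of the territory, which is 55.5 per Mb. The share was 25.5%, 24.9% and 25.4% in the replicates' own lists. Tandem gaps held 48.3% of the regions and 50.1% of the territory, and convergent gaps 26.2% and 26.7%. A neighbouring gene for non-coding RNA bordered 53.4% of the regions and 40.7% of the territory. The nearest start site was protein-coding for 892 regions (63.4%), against 66.8% of the territory. It belonged to a non-coding RNA for 473 (33.6%), against 26.0% of the territory. Repeats were rare: 56 regions (3.98%) had a window over 50% soft-masked or overlapping a transposable element, against 24.5% of windows elsewhere in the territory and 3.82% of peaks near start sites.

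Summits sat in a trough of GC content between GC-rich shoulders. Mean GC within 100 bp of the summit was 35.1%, against 43.7% in windows 500 bp away and 40.8% in territory windows over 1000 bp from any peak. Summit minus flanks was −8.20, −8.42 and −8.34 points in the replicates (mean −8.32 ± 0.11, SD, n = 3; exact sign-flip p = 0.25). In windows of 51 bp the mean ran from 46.0% at 300 bp left of the summit through 32.4% at it to 46.8% at 250 bp right. The trough was deeper than in the other classes: this difference minus that of peaks near start sites was −1.69, −0.40 and −1.51 points, and minus that of gene-body peaks −2.19, −1.50 and −1.89 points (exact sign-flip p = 0.25 for each).

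**Figure D4:**
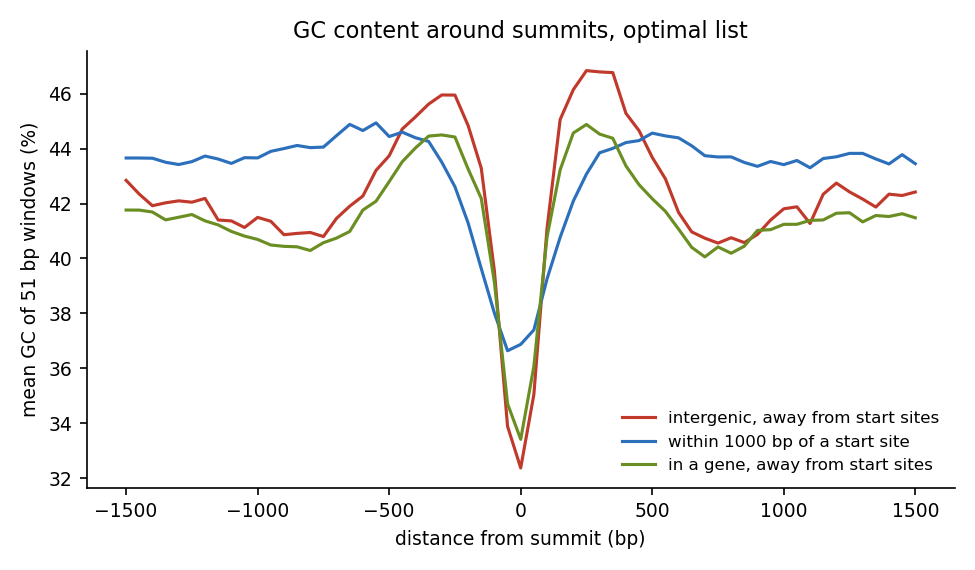
Mean GC content of 51 bp windows against distance from the summit for the 3 classes of optimal peaks. Intergenic summits stood at 32.4% between shoulders of 46.0% and 46.8%.

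The forkhead core was no more frequent than base composition gives. TAAACA was centred within 100 bp of 291 intergenic summits (20.7%), against 16.7% in the flanks, 18.8% in the territory and 23.7% in territory windows weighted to the summits' GC content. Over those weighted windows the log2 ratio was −0.23, −0.25 and −0.13 in the replicates (mean −0.20 ± 0.07, SD, n = 3; exact sign-flip p = 0.25). Minus the share of peaks near a start site, 25.9% in the optimal list, it was −5.75, −6.15 and −5.13 points in the replicates (mean −5.68; exact sign-flip p = 0.25). With motif centres within 50 bp of the summit the mean was −2.45 points, and the log2 ratio to weighted territory was −0.22, −0.21 and 0.065 (mean −0.12; exact sign-flip p = 0.50), so replicate 3 changed sign. The FOXO form GTAAACA was found at 3.34% of intergenic summits, 6.54% of those near start sites, 5.55% in gene bodies and 4.34% of weighted territory windows. The forkhead core did not go with height: 19.9% of the 352 regions of highest signal held it and 24.1% of the 352 of lowest signal. Promoter elements were rare. The DRE, TATCGATA, which binds the factor Dref, was found at 5 intergenic summits (0.36%) and 5.55% near start sites. GGTCACAC, known as Ohler motif 1, was found at 5 and 4.02%. The homeodomain core TAATTA was found at 17.3% and the loose AP-1 form TGANTCA at 4.48%, against 19.1% and 3.93% of the weighted windows.

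A sequence word that was not on the motif list stood out when all 7-letter words were ranked after the values were seen. Of 4405 words found at 20 or more intergenic summits, 94 were over 2 times as frequent as in territory windows weighted to the same GC content. The first was CTCAGTG (reverse complement CACTGAG), at 9.81% of summits against 1.48%, a ratio of 6.63 in the optimal list and of 6.53, 6.31 and 5.95 in the replicates. The word CAGTGTA followed with a ratio of 5.62, the word CAGTGCA with 5.49 and the word TCAGTGC with 5.04. All of them share CAGTG. Of the 8 words that contain TAAACA none exceeded a ratio of 1. Words that hold CAGTG but not TCAGT also ranked high, such as CGCAGTG with 4.045 and CCCAGTG with 4.031. In CTCAGTG the last 6 letters are TCAGTG, which is the initiator form TCAGT with a G after it. At annotated protein-coding start sites TCAGT stood on the gene's strand with its A within 5 bp of the start at 11.0% of 19253 sites, against 1.15% and 1.02% at places 100 bp downstream and upstream. For TCAGTG these shares were 1.13%, 0.31% and 0.28%. In counts, TCAGTG was found at 218 start sites and TCAGT at 2113, against 59 and 221 at 100 bp downstream. The form with G was thus a smaller part of TCAGT at start sites than beside them. Whether the word acts as an initiator was not tested. No start-site mapping was used, so whether transcription starts at the word in intergenic regions was not tested.

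The word had a place and a direction. It was most frequent 60 to 79 bp to the right of the summit on the plus strand, with 47 sites against 2 on the minus strand. On the left it was most frequent at −80 to −61 bp on the minus strand, with 42 sites against 7 on the plus strand. Near the summit it was less frequent than at these places but, on the strand pointing outward, above the territory. At 0 to 19 bp the plus strand held 9.95 sites per 1000 intergenic summits and 4.18 per 1000 territory windows. The minus strand there held 3.55 and 3.86. Between 50 and 130 bp from the summit, 282 sites pointed away from it and 42 towards it, so 87.0% pointed outward. In the replicates' own lists 87.6%, 85.9% and 80.4% pointed outward (mean 84.6% ± 3.7, SD, n = 3; exact sign-flip test against 50%, p = 0.25). At 300 to 380 bp from the summit 56 pointed each way, and in 15562 territory windows away from peaks 49.3% pointed outward. Gene-body peaks had 79.4% outward and peaks near a start site 63.5%. An outward site was present at 253 intergenic summits (18.0%), 13.1% of gene-body summits, 7.48% of those near a start site and 3.29% of territory windows. In the replicates the intergenic share exceeded that near start sites by 11.6, 8.57 and 8.30 points, and that in gene bodies by 6.16, 2.76 and 3.63 points (exact sign-flip p = 0.25 for each). Both the word and the range of 50 to 130 bp were chosen after the values were seen, from the same regions.

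**Figure D5:**
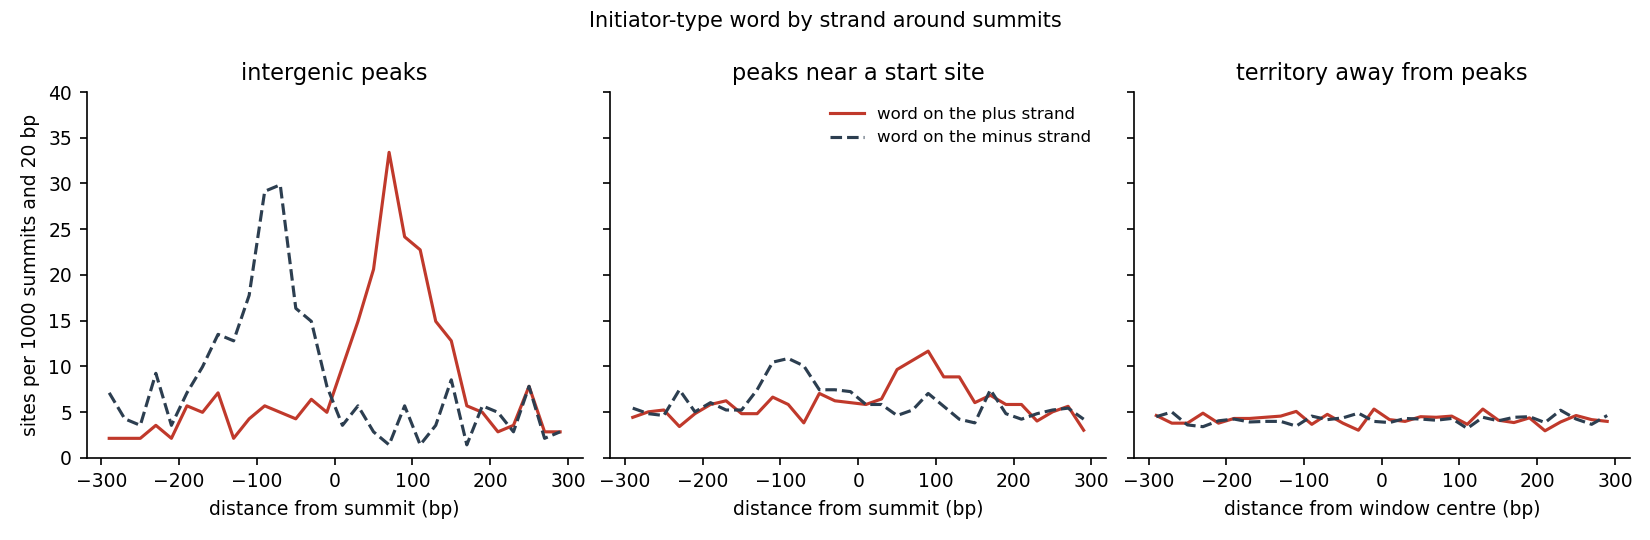
Sites of the word TCAGTG per 1000 summits in bins of 20 bp, by distance from the summit and by strand. Panels show intergenic peaks, peaks near a start site and 15562 windows of intergenic territory away from peaks. In intergenic peaks the plus-strand sites were most frequent at 60 to 79 bp right of the summit and the minus-strand sites at 61 to 80 bp left.

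Regions with outward words differed from the rest in other measures. One side held the word in 226 regions and both sides in 27, while 1154 had none. The median signal percentile was 42.6 without the word, 51.4 with it on one side and 64.0 with it on both. The share found in the upper list of all 3 replicates was 62.7%, 74.3% and 74.1%, beside the background of 65.2%. Mean GC at the summit moved with it, at 35.5%, 33.2% and 32.3%. The forkhead core was found at 19.8%, 23.5% and 33.3% of the summits, the last being 27 regions. The median distance to the nearest start site was 4064.5, 4448 and 5527 bp. The printed region on X, with the word on both sides, had signals of 517, 631 and 291 in the replicates, and lay 6425 bp from the 3′ end of GCS2alpha, a glucosidase II subunit gene. The one on 3R had 322, 374 and 284 and lay 8122 bp from the 3′ end of CG43131 and 13484 bp from the 5′ end of corto, a chromatin factor gene. The one by odd had 227, 344 and 201.1, and its nearer neighbour was lncRNA:CR43823, 3899 bp away. All 3 were in the upper 9766 of every replicate.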

How the data were processed

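Peak lists for 3 replicates, their pool and 1 optimal list were used on dm6; the dm3 lists were not analysed here. The signal of each region is the height value that the authors' caller wrote into the deposited lists; its normalization, and the aligner, the caller and the cutoff for reproducibility, were not given in the sources used here. No per-sample value column was left unused (0). Summits were start plus offset. Genes came from Ensembl release 115 (BDGP6), sequence from NCBI Release 6. Differences over 3 replicates were tested by an exact two-sided sign-flip permutation test. Replicates were compared over the 9766 regions of highest signal each, matched within 100 bp. Motifs were counted with centres within 100 bp, flanks lay 500 bp away, and GC weighting used 20 bins. Python 3, numpy, pandas and scipy were used, and the functions were tested on simulated data. The members, motifs and gene lists were chosen with earlier results of these data known. Named regions were the 12 highest, the highest on each arm, the farthest, the 3 gaps with most, those beside foxo, InR, Thor or bmm, and up to 3 genes per list with the highest region beside them; hth, ems, en, bin, slp1, slp2, Gr93a, Gr93b, skl, grim and rpr, the stretches to heca and past hry, and the TCAGTG windows were added after values were seen. Alternatives were other start-site distances, positions, thresholds, windows and lists, repeats left out, and each replicate left out.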

Additional observations from a re-analysis of the deposited data

How the results depend on the processing

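Of 58 recomputed differences and log2 ratios, 51 kept their direction. Recovery minus that of peaks near start sites was −11.0 points with the replicate lists cut to their upper part, against −1.15 as reported, and turned to 1.12 points with all regions of each replicate and to 0.84 in the part of the optimal list above its median signal. Recovery minus that of gene-body peaks turned from 0.19 to −0.71 with summits shared within 50 bp, −0.60 with all regions and −0.33 above the median. The signal percentile difference from gene-body peaks turned from 0.72 to −1.97 above the median and −1.50 over all regions. The difference in signal percentile from peaks near start sites went from −9.76 to −19.3 over all regions. Forkhead core minus that of peaks near start sites shrank from −5.68 to −2.45 points within 50 bp. The cause was not tested. The intergenic share was 16.7% at 500 bp, 11.2% at 2000 bp, 18.4% with protein-coding genes only and 12.6% above the median. With repeats left out, summits in repeat windows were dropped but all bases stayed in the share of bases. Recovery in every replicate was 48.0% within 50 bp, 74.4% by interval overlap, 31.1% with the replicate lists cut to their upper part, 88.8% in all regions and 94.0% above the median. Divergent gaps held 23.8% at 2000 bp and 26.9% above the median, where runs held 51.4%. Bordering genes with a region were 18.3% at 2000 bp and 9.79% above the median, patterning genes 54.8% and 43.8%. Leaving out 1 replicate gave recovery of 68.8% to 76.0%, recovery differences of −4.50 to 1.32 (start sites) and −0.71 to 1.33 (gene bodies), and no other turn of direction. With TCAGT, outward sites exceeded 50% by 17.6 points, and with 30 to 150 bp by 32.1, against 34.6. The settings for this word were chosen after the data were seen. Classes were compared within each replicate; no paired analysis of groups of samples was possible because there is 1 group.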
